A study of Homo sapiens with 4 samples.

Results

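Histone genes and histone variants were examined in Kasumi-1 cells, an acute myeloid leukemia (AML) line that carries the RUNX1-RUNX1T1 fusion. Members were the rows of the deposited table whose current gene symbol is that of an H1, H2A, H2B, H3 or H4 gene, of the variants H2AX, H2AZ1, H2AZ2, H3-3A and H3-3B, or of a macroH2A gene, with pseudogenes and opposite-strand transcripts left out. This gave 35 genes among the 18567 in the table. They comprised 27 cluster genes, which are named after their place in the histone gene clusters (H1-2 and every H2AC, H2BC, H3C and H4C symbol), and 8 variant genes. Another 48 annotated genes fit the same names and were not analysed here.

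RNA was sequenced from 2 samples labelled NC and 2 samples labelled sh-ANP32B. All 4 were Kasumi-1 cells. NC is labelled as having had no treatment and no hairpin, but the methods mention a control hairpin. If NC had none, effects of lentiviral infection and puromycin selection and those of the knockdown cannot be told apart. The sh-ANP32B samples carry a short hairpin RNA against ANP32B, a nuclear protein that binds histones H3 and H4, and the hairpin used in each was not given in the sources used here. Nothing states that the replicates came from separate cultures, so p-values measure the spread between these samples, which may be technical.

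Histones are the proteins around which DNA is wound in nucleosomes. The cluster genes are the main supply for newly copied DNA, are expressed in S phase, and give mRNAs that typically end in a stem-loop in place of a poly(A) tail. The stem-loop is bound by SLBP, and the precursor is cut just behind it with the help of the U7 small nuclear ribonucleoprotein. Variant genes such as H2AZ1 and H3-3A lie outside the clusters, mostly give ordinary polyadenylated mRNAs and supply histones through the whole cell cycle. The library kit named in the labels, the Illumina TruSeq RNA Sample Prep kit, selects RNA with a poly(A) tail by design.

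The sequence at the end of the coding region differed between the classes, with 1 exception. The stem-loop, searched in the transcribed direction as GG, any 2 bases, CTTTT, any base, AG, any 2 bases and CC, within 150 bases after the stop codon on hg38, was found in all 27 cluster genes and in 1 of the 8 variant genes, H2AX. Among 19950 protein-coding genes it was found in 70, or 0.351%. An mRNA that ends at this element lacks the poly(A) tail that the library kit selects for. The elements of the 4 cluster genes with the smallest limma p and that of H2AX are shown. The stem-loop is in capitals with 5 flanking bases on each side.
H2AC6: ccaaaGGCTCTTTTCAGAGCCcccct
H2BC21: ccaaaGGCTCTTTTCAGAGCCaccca
H2BC12: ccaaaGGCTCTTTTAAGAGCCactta
H2BC5: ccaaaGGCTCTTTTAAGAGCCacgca
H2AX: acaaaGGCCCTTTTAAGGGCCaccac
On hg38 the capitals lie at chr6:26124669-26124684 (H2AC6), chr1:149886188-149886203 (H2BC21), chr6:27146366-27146381 (H2BC12), chr6:26158587-26158602 (H2BC5) and chr11:119094898-119094913 (H2AX, 50 bases after the stop codon), on the minus strand for H2BC21, H2BC12 and H2AX. For 11 of the 27 cluster genes the GENCODE annotation also holds a transcript that runs on for more than 100 bases beyond the stem-loop, and 16 have none. H2AC6, H2BC5, H2BC21 and H2AC25 have such a transcript and H2BC12 has none. The variant gene H2AX also has one, which runs on for 1024 bases beyond its stem-loop.

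The levels of both classes did not meet. TPM is a unit in which the signal of a gene is divided by its transcript length. That alone does not make the classes comparable, since the kit is not made to capture mRNAs without a poly(A) tail. The cluster values are levels in these libraries and may not stand for the amount of cluster mRNA in the cells. The mean over all 4 samples ranged from 0.657 to 59.3 TPM in the cluster genes, with a median of 2.08, and from 201 to 525 TPM in the 7 variant genes described singly, with a median of 263. The lowest mean of any gene in the table was 0.5002 TPM. Together the cluster genes made up 4.42% and 5.06% of the summed histone TPM in the NC samples and 8.76% and 7.29% in the sh-ANP32B samples. The depth is unknown, since TPM does not retain it, and counting error could not be computed.

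**Figure D1:**
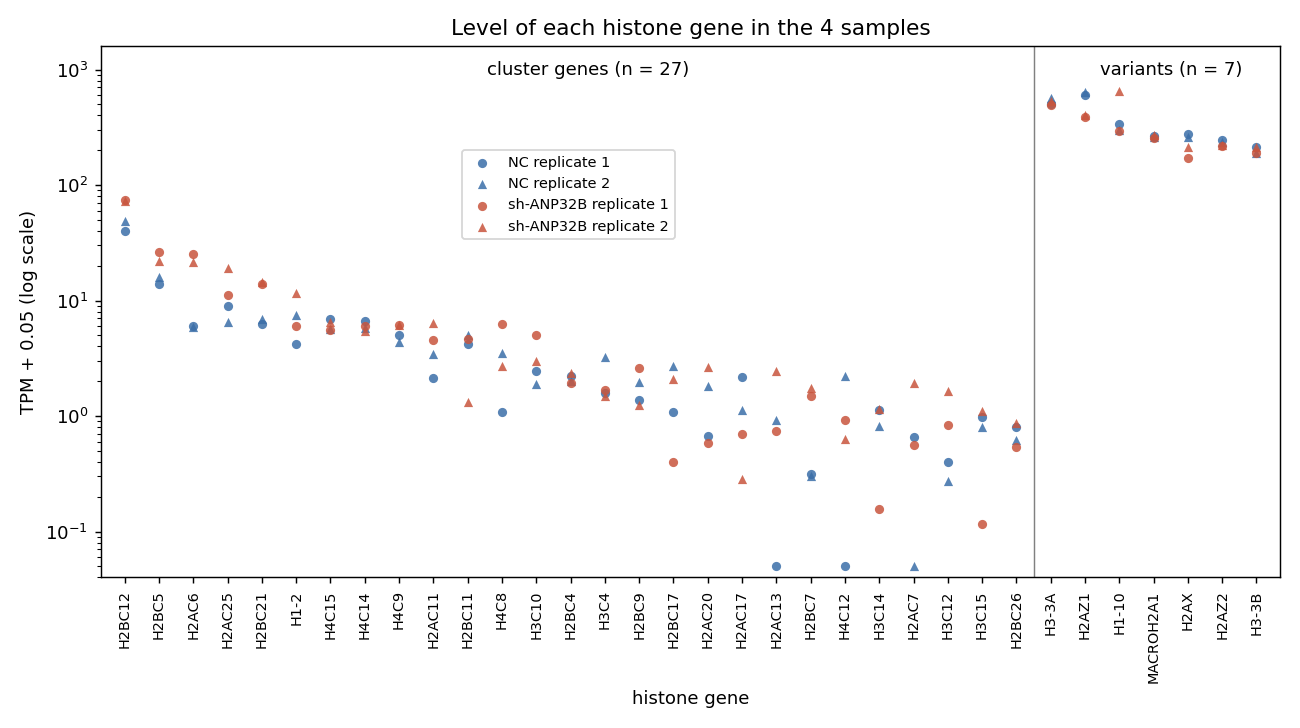
Level of 34 histone genes in TPM plus 0.05 on a log axis, with 1 point per sample, circles for replicate 1 and triangles for replicate 2, and values of 0 on the bottom edge. The 7 variant genes plotted lie between means of 201 and 525 TPM, above every cluster gene.

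The libraries as a whole were described by a few values. ANP32B itself was at 384 and 392 TPM in NC and at 51.8 and 41.2 TPM after knockdown, a log2 difference of -3.04 (SE 0.150, adjusted p 0.00516 by limma). Of the markers of this leukemia, RUNX1 (120.5 to 143 TPM), CD33 (58.5 to 70.1 TPM) and RUNX1T1 (15.6 to 31.2 TPM) were well above 0 in these cells, and KIT was low at 1.55 to 3.41 TPM. CD34, MPO and the erythroid markers were not analysed here. PECAM1, which had been listed beside stromal markers, lay between 34.8 and 58.7 TPM and is not read as a sign of other cells. The sh-ANP32B replicates differed from each other along GC content, with a Spearman rho of 0.577 across 15427 genes between the GC percent of the longest transcript and the log2 difference of replicate 2 over replicate 1, against -0.206 in NC. Genes are not independent replicates and this is a description.

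By limma across 16817 genes, 2 cluster genes, H2AC6 and H2BC21, rose after knockdown of ANP32B, and 1 variant gene, H2AZ1, the more abundant of the H2A.Z genes, fell. H2AX, H2BC12, H2BC5, H2BC7, H2AC25 and H2AC11 had an unadjusted p under 0.05 only, and the replacement H3 genes, H2AZ2 and MACROH2A1 did not pass the test. In all, 29 of the 35 members reached the abundance needed for testing (at least 1 TPM in at least 2 samples), 21 of them cluster genes and 8 variant genes. Of these, 2 cluster genes did so in the samples of 1 group alone.

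An adjusted p under 0.05 was reached by 2 cluster genes that were higher and by 0 that were lower, where 2.14% of all genes tested were called higher and 1.18% lower. The unadjusted p was under 0.05 for 9 of the 29 members, where 23.8% of all genes tested were under it in either direction. Of the 9, 7 were cluster genes, all higher, and 2 were variant genes, both lower. H2BC7 is among the 7 and passed the abundance filter through the knockdown samples alone. Among the variant genes 1 was called lower and 0 higher. In 9 of the 21 cluster genes tested both sh-ANP32B samples lay above both NC samples, and in 1 both lay below. Of the 8 variant genes, 0 had both above and 3 had both below. Over all genes tested these orders were found in 33.2% (above) and 21.4% (below). After median-of-ratios scaling 1 cluster gene was called higher and 1 variant gene lower, and over all genes 288 were lower and 230 higher in place of 199 and 360. The median log2 fold change was 0.33 over the 21 cluster genes tested and the same over all 27 listed, -0.029 over the 8 variant genes, and 0.083 over all genes tested. The cluster median was 0.15 without NC replicate 1, 0.50 without NC replicate 2, 0.18 after GC correction and 0.57 over the genes with 1 TPM in each sample. Under the criterion of the study (an unadjusted p under 0.05 and a log2 fold change beyond 0.5) there were 7 higher cluster genes and 2 lower variant genes, against 12.1% and 6.55% of all genes.

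**Figure D2:**
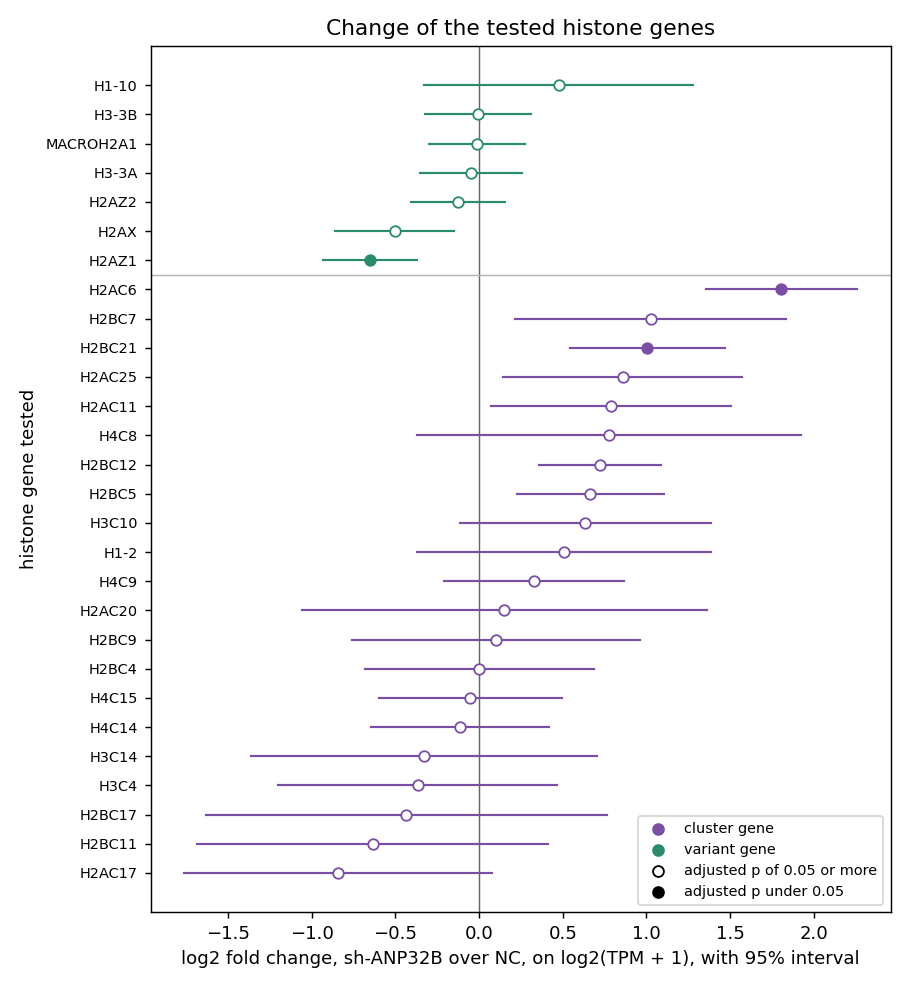
Log2 fold change of 28 tested histone genes, sh-ANP32B over NC on the log2(TPM + 1) scale, with the 95% interval from limma as a line. Filled points mark H2AC6 (1.81), H2BC21 (1.01) and H2AZ1 (-0.65), the genes with an adjusted p under 0.05, and open points all others.

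The summed level of the cluster genes was 120.3 and 139.0 TPM in the NC samples and 208 and 214 TPM in the sh-ANP32B samples. The groups did not overlap, and they averaged 129.7 ± 13.2 and 211 ± 4.32 TPM (SD, n = 2 each), a ratio of 1.62.

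The summed level of the variant genes was 2604 and 2609 TPM in the NC samples and 2163 and 2717 TPM in the sh-ANP32B samples. The sh-ANP32B values lay on either side of NC, with group means of 2606 ± 3.16 and 2440 ± 392 TPM (SD, n = 2 each). With 2 samples in each group the smallest two-sided p of an exact permutation test is 0.3333, and these sums were not tested.

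**Figure D3:**
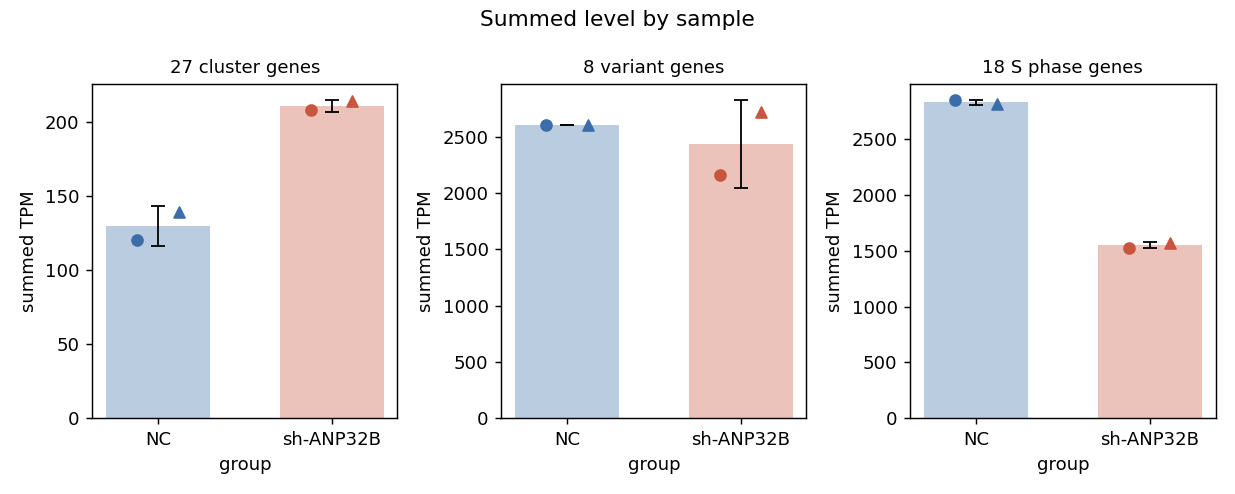
Summed TPM of the 27 cluster genes, the 8 variant genes and 18 S phase genes, with the group mean as a bar from 0, the SD of 2 samples as an error bar and each sample as a point. The cluster sum is higher in both sh-ANP32B samples, the variant sum overlaps, and the S phase sum is lower in both.

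Genes of S phase were lower. In a list of 18 S phase genes (PCNA, the MCM helicase and nucleotide synthesis enzymes among them), 12 were called lower and 0 higher. Of all genes tested 1.18% were called lower and 2.14% higher. The median log2 fold change was -0.89 over the list and 0.083 over all genes tested. Their sum was 2849 and 2814 TPM in NC and 1530.0 and 1569 TPM after knockdown. From these bulk RNA values fewer cells in S phase and less RNA per cell cannot be told apart, and the part of S phase in the histone values was not tested. By flow cytometry, the study reported a lower share of cells in S phase after ANP32B knockdown, with Kasumi-1 among its lines. Of 10 RNAs without a poly(A) tail chosen to gauge how much such RNA each library held, RN7SL1 and RN7SL2 had a row. They summed to 126.3 and 199.7 TPM in NC and to 94.0 and 126.3 TPM after knockdown, and neither sh-ANP32B library was above both NC libraries. RN7SL2 alone stood at 45.5 and 111.8 TPM in NC. With that spread these 2 RNAs cannot show how much RNA without a tail each library held. The other 8 were not analysed here.

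Among the cluster H2A genes, H2AC6 alone passed the test. H2AC6 (ENSG00000180573), one of many genes for canonical H2A, is at chr6:26124145-26139116 of hg38, plus strand. It stood at 5.98 and 5.86 TPM in NC against 25.1 and 21.5 TPM after knockdown. Both knockdown samples stood far above both NC samples. Averages were 5.92 ± 0.0835 and 23.3 ± 2.51 TPM (SD, n = 2 each), and the log2 fold change was 1.81 (SE 0.189, 95% interval 1.36 to 2.26, adjusted p 0.0258 by limma). None of the 1664 windows of 100 bases in its transcripts occurred in a transcript of another annotated gene. Without the abundance trend of limma the adjusted p was 0.0929.

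H2AC25, a cluster H2A gene at chr1:228434777-228457873, minus strand, stood at 8.94 and 6.45 TPM in NC against 11.0 and 19.3 TPM after knockdown. The groups did not overlap, but the sh-ANP32B replicates lay apart, and the log2 fold change of 0.86 did not pass the test (SE 0.299, adjusted p 0.151 by limma). It was 1.24 without sh-ANP32B replicate 1 and 0.48 without replicate 2. With the replicate number as a block the limma adjusted p was 0.0360, the 1 of 11 alternative fits under 0.05. H2AC6, H2BC21 and H2AC25 had a mean under 10 TPM in NC, and reached the 10 TPM used to choose cluster genes for naming through their knockdown samples. The remaining 5 cluster H2A genes had means under 10 TPM, of which H2AC17, at 2.14 and 1.08 TPM in NC and 0.643 and 0.234 TPM after knockdown, was the only cluster gene with both knockdown samples below both NC samples, an order found in 21.4% of all genes tested (log2 fold change -0.84, limma adjusted p 0.246). It passed the abundance filter through the NC samples alone, and 63.7% of its windows are shared, with H3C12 the named gene.

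The cluster H2B genes gave the other call. H2BC21 (ENSG00000184678), a gene for canonical H2B, is at chr1:149884459-149886682, minus strand. It stood at 6.16 and 6.93 TPM in NC against 13.8 and 14.5 TPM after knockdown. Each group was tight and the groups stood clearly apart. Averages were 6.54 ± 0.542 and 14.1 ± 0.484 TPM (SD, n = 2 each), for a log2 difference of 1.01 (SE 0.194, 95% interval 0.54 to 1.47, adjusted p 0.0482 by limma). The call is near the threshold. The limma adjusted p was 0.0556 after median-of-ratios scaling, 0.0541 after upper-quartile scaling and when mitochondrial genes were dropped, and 0.0519 without a filter on low values, at log2 fold changes between 0.92 and 1.01. Leaving out 1 sample gave log2 fold changes from 0.93 to 1.08. Of its 2125 windows of 100 bases, 2.59% also occurred in another annotated gene, H2BC18 among them.

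H2BC12 was the most abundant cluster gene. It is at chr6:27146361-27146855, minus strand, and stood at 40.3 and 48.9 TPM in NC against 74.9 and 73.1 TPM after knockdown. The groups did not overlap and the log2 fold change was 0.72 (SE 0.152, 95% interval 0.36 to 1.09), at an adjusted p by limma of 0.0565. The adjusted p was 0.0446 when 1 TPM was required in each sample and 0.0243 with the replicate block. These were the 2 of 11 alternative fits under 0.05. It was 0.0704 after median-of-ratios scaling, 0.0901 with the replicate block and GC correction, and 0.140 without the abundance trend. When 1 sample was left out, the log2 fold change ran from 0.59 to 0.86. Of its windows of 100 bases, 22.5% also occurred in another gene, with H2BC12L the named one, so part of its value is uncertain.

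H2BC5, at chr6:26158122-26171349, plus strand, stood at 13.8 and 15.8 TPM in NC against 26.5 and 21.8 TPM after knockdown. Its log2 fold change was 0.67 (SE 0.185, 95% interval 0.23 to 1.11) at an adjusted p by limma of 0.0971. The adjusted p was 0.0383 after correction for GC content, the 1 of 11 alternative fits under 0.05, and 0.159 without the abundance trend. When 1 sample was left out, the log2 fold change ran from 0.53 to 0.80. H2BC7 stood at 0.266 and 0.250 TPM in NC against 1.45 and 1.68 TPM after knockdown, so that it passed the abundance filter through the knockdown samples alone. H2BC4 lay at 2.19 and 1.96 TPM in NC against 1.88 and 2.29 TPM in sh-ANP32B, with an interval of the log2 fold change from -0.68 to 0.68, and 21.4% of its windows are shared, HFE among the named genes.

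The cluster genes of H1, H3 and H4 gave no calls. H1-2, the cluster linker histone gene in the table, stood at 4.17 and 7.45 TPM in NC against 5.97 and 11.7 TPM after knockdown, with overlapping groups. Of 5 H3 genes and 5 H4 genes, 3 and 4 were tested, and their log2 fold changes ranged from -0.37 to 0.64 and from -0.11 to 0.78. H4C14 and H4C15, neighbouring copies that share 94.9% and 100% of their windows of 100 bases, had log2 fold changes of -0.11 and -0.051. H3C14 and H3C15 share 99.1% and 100%, so the values of these copies are uncertain. By annotation, the 10 tested cluster genes with a transcript that runs on beyond the stem-loop had a median log2 fold change of 0.65 and the 11 tested genes without one had 0.15. In sum over all listed genes, the first went from 58.9 and 59.3 TPM in NC to 106 and 98.9 TPM in sh-ANP32B, and the second went from 61.4 and 79.7 TPM to 102 and 115 TPM. Whether these differ was not tested.

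Many cluster genes lie head to head with a partner and share the stretch between their start sites. Among the members there were 6 such pairs of an H2A and an H2B gene, 219 to 248 bases apart. H2AC6 had a log2 difference of 1.81 on the log2(TPM + 1) scale and its partner H2BC4, 219 bases away, 0.0021. H2BC21 had 1.01 and its partner H2AC20, 236 bases away, 0.15, with an interval from -1.06 to 1.36. H2AC11 had 0.79 and H2BC11 -0.63, where neither passed the test and the H2BC11 value in sh-ANP32B went from 4.63 to 1.27 TPM between replicates. H2AC25 had 0.86 and H2BC26, which was too low to be tested, -0.015. H2AC7, also too low to be tested, had 0.72 and H2BC7 1.03. H2AC17 had -0.84 and H2BC17 -0.43. The sizes of the differences within a pair were not tested against each other.

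**Figure D4:**
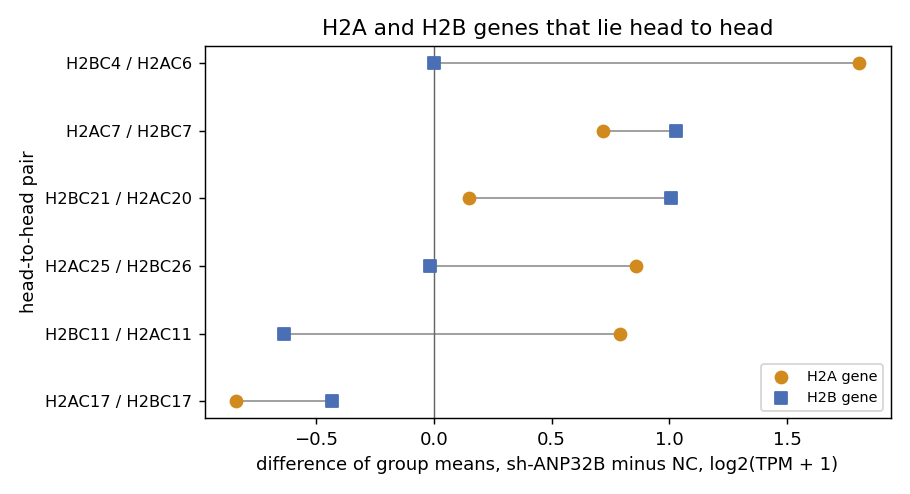
Difference between group means on the log2(TPM + 1) scale, sh-ANP32B minus NC, for 6 head-to-head pairs, with the H2A gene as a circle and the H2B gene as a square joined by a line. H2AC6 lies at 1.81 and its partner H2BC4 at 0.0021.

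The promoter windows of the 4 cluster genes with the smallest limma p are printed to show what their start regions hold. Of these, H2BC12 and H2BC5 did not pass the test. They are RefSeq windows of GRCh38.p14, from 250 bases before to 50 bases after the start, read in the direction of the gene, with 3 motifs in capitals on either strand. These were CCAAT, the box bound by NF-Y, then TATAAA, the TATA box, and also TTTGCAT, the core of the octamer. Matches can overlap each other. The H2AC6 window, chr6:26123922-26124221 on the plus strand, also takes in the start of H2BC4. In the same way the H2BC21 window takes in the start of H2AC20.
H2AC6: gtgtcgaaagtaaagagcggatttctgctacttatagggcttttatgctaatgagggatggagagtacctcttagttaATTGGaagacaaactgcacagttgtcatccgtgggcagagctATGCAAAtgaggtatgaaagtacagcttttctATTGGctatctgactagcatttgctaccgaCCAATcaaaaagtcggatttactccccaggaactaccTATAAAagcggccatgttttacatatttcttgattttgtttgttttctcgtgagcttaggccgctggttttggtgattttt
H2BC21: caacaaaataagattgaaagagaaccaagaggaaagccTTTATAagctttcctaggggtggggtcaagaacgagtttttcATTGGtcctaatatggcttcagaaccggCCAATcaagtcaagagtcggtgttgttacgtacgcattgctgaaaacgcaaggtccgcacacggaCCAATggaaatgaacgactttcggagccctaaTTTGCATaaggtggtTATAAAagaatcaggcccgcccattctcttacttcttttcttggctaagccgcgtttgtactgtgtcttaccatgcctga
H2BC12: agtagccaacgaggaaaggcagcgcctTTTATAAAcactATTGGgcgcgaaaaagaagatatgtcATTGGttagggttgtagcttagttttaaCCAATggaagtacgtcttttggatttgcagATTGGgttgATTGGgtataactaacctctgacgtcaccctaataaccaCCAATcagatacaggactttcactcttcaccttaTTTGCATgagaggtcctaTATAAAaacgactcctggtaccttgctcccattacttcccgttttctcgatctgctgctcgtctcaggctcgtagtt
H2BC5: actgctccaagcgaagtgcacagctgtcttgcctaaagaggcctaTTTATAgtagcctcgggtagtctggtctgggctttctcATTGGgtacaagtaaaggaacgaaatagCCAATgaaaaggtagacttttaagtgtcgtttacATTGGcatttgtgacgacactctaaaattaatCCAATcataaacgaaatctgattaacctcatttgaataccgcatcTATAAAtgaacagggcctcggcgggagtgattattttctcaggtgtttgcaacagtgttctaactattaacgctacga
The other windows are chr1:149886633-149886932 (H2BC21, minus strand), chr6:27146809-27147108 (H2BC12, minus strand) and chr6:26157871-26158170 (H2BC5, plus strand). CCAAT occurred in all 4, from 3 times in H2AC6 and H2BC21 to 6 times in H2BC12, and TTTGCAT occurred in H2AC6, H2BC21 and H2BC12. The windows of the partners H2BC4 and H2AC20, neither of which was called, hold these motifs as often as those of H2AC6 and H2BC21. Windows were found for 33 of the 35 members. They are not all separate sequences, and the counts below include repeats. H2AC7 and H3C4 were given the same window, which does not lie at the GENCODE start of H3C4. H4C14 and H4C15 hold the same letters, and head-to-head partners share a stretch read from both strands. CCAAT occurred in 22 of 26 cluster windows and 5 of 7 variant windows against 35.7% of 27305 promoters, TATAAA in 15 and 4 against 11.95%, and TTTGCAT in 13 and 1 against 4.51%. TTTGGCG, a core of E2F sites, occurred in 1 cluster window and 0 variant windows against 1.92%. A match is a description of letters and not a bound site.

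Among the variant genes only H2AZ1 (ENSG00000164032) passed the test of limma. It encodes the H2A.Z histone found at promoters. It is at chr4:99948086-99950355, minus strand, and stood at 605 and 634 TPM in NC against 386 and 403 TPM after knockdown. The replicates of each group lay close together and the groups were far apart. Averages were 619 ± 20.3 and 395 ± 12.03 TPM (SD, n = 2 each), 63.7% of NC, and the log2 fold change was -0.65 (SE 0.118, 95% interval -0.93 to -0.37, adjusted p 0.0442 by limma). Without the abundance trend the limma adjusted p was 0.139. Leaving out 1 sample gave log2 fold changes from -0.68 to -0.62.

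H2AZ2 encodes a near-identical H2A.Z protein from another chromosome. It stood at 244 and 236 TPM in NC against 217 and 223 TPM after knockdown. Both knockdown samples were below both NC samples, but by little, and the log2 fold change was -0.13 (95% interval -0.41 to 0.16, adjusted p 0.574 by limma). The ratio of H2AZ1 to H2AZ2 was 2.48 and 2.69 in NC and 1.78 and 1.81 in sh-ANP32B, and the sum of both went from 849 and 869 TPM to 603 and 626 TPM. Few windows of either gene are shared with another gene (4.41% for H2AZ1 and 0.793% for H2AZ2).

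H2AX is the variant phosphorylated around DNA double-strand breaks, and it is the variant gene with a stem-loop. It stood at 279 and 261 TPM in NC against 170.1 and 213 TPM after knockdown. The groups did not overlap, the sh-ANP32B replicates differed, and the log2 fold change was -0.50 (SE 0.149, 95% interval -0.86 to -0.15, adjusted p 0.110 by limma). The longest H2AX transcript is 66.8% GC. After GC correction the log2 fold change was -0.70 at an adjusted p by limma of 0.0104, and 0.0283 with the replicate block as well. These were the 2 of 11 alternative fits with a limma adjusted p under 0.05, and it was 0.221 without the abundance trend. The log2 fold change was -0.34 without sh-ANP32B replicate 1 and -0.66 without replicate 2.

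The H3 replacement genes H3-3A and H3-3B encode the same protein. H3-3A stood at 503 and 564 TPM in NC against 494 and 539 TPM after knockdown. H3-3B stood at 213 and 190.4 TPM in NC against 190.04 and 212 TPM after knockdown. The groups overlapped for both genes. Their log2 fold changes were -0.046 (95% interval -0.35 to 0.26) and -0.0074 (95% interval -0.33 to 0.31). Of the H3-3A windows, 15.6% are shared with other genes, pseudogenes H3P6 and H3P16 among them.

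MACROH2A1 encodes an H2A with a large extra domain and is known from the inactive X chromosome. It stood at 267 and 261 TPM in NC against 253 and 271 TPM after knockdown, with overlapping groups and a log2 difference of -0.012 (95% interval -0.30 to 0.27). Of its windows, 24.4% are shared, with PITX1-AS1 the named gene.

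H1-10 is a linker histone variant whose values turned on 1 library. It stood at 335 and 297 TPM in NC against 296 and 652 TPM after knockdown. Replicate 2 of sh-ANP32B stood far above the other samples, and replicate 1 lay at the level of NC. The log2 difference was 0.48 (SE 0.336, adjusted p 0.439 by limma), 1.04 without sh-ANP32B replicate 1 and -0.094 without replicate 2, and its longest transcript is 68.6% GC. Of its windows, 10.7% are shared with H1-10-AS1, an opposite-strand transcript.

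Of 20 genes that drive or process histone mRNA, 19 were tested, and 1 was called lower and 0 higher, against 1.18% and 2.14% of all genes tested. The gene called lower was SLBP, for the protein that binds the stem-loop. It stood at 221 and 259.9 TPM in NC against 152 and 135 TPM after knockdown, with groups that did not overlap. Its log2 fold change was -0.74 (SE 0.142, 95% interval -1.08 to -0.40, adjusted p 0.0482 by limma), and the adjusted p was 0.0529 with a pseudocount of 0.1. Leaving out 1 sample gave log2 fold changes of SLBP from -0.85 to -0.62. NPAT, the activator of the histone clusters, stood at 11.3 and 14.3 TPM in NC against 11.9 and 7.19 TPM after knockdown, a log2 difference of -0.41 (adjusted p 0.407 by limma). It was -0.74 without sh-ANP32B replicate 1, -0.085 without sh-ANP32B replicate 2 and -0.25 without NC replicate 2. CASP8AP2, a partner of NPAT in the histone locus body, stood at 31.3 and 25.2 TPM in NC against 24.8 and 20.4 TPM after knockdown, a log2 difference of -0.31 (adjusted p 0.376 by limma). It was -0.15 without NC replicate 1, -0.17 without sh-ANP32B replicate 2 and -0.46 without NC replicate 2. Over the 19 genes the median log2 fold change was -0.24, and 14 were below 0, where 42.1% of all genes tested were. Under the criterion of the study 3 of them were lower and 2 higher, against 6.55% and 12.1% of all genes.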

How the data were processed

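RNA of 2 NC and 2 sh-ANP32B samples was measured by RNA sequencing. The authors aligned the reads to hg38 with HISAT2 2.0.5 (submitters' processing notes) and deposited TPM values, which are scaled to transcript length and to the total of each sample. The program, annotation and filters behind them were not given in the sources used here. Columns summed to between 997812 and 998314, and the depth is unknown.

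Of the gene IDs, 16986 of 18567 were found in GENCODE v44, used for symbols and positions. H2AC25 and H4C16 are the current symbols of H2AW and H4-16, so H2AC25 counted as a cluster gene. Members and lists were chosen with earlier results of these data known. Genes that reached 1 TPM in 2 or more samples were tested on log2(TPM + 1) with limma 3.58.1 (abundance trend, R 4.3.3), two-sided, with Benjamini-Hochberg adjustment over 16817 genes. The scale understates changes of low genes. The study's own DESeq2 needs counts and was not used. The fit was tested on simulated data.

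Named genes were the members with an adjusted p under 0.05, every variant gene but 1, which is not reported here and stays in counts and sums, cluster genes with a mean of at least 10 TPM, and SLBP, NPAT and CASP8AP2. ANP32B served as a check of the labels. Other members (H1-2, H2BC4, H2BC7, H2AC17, the copies and the head-to-head partners) were named after their values were seen. Alternatives were other pseudocounts, filters and scalings, GC correction, no trend, a replicate block and leaving out each sample. Scripts used Python 3.11.15, pandas 2.3.3 and matplotlib 3.10.9.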

Additional observations from a re-analysis of the deposited data

How the results depend on the processing

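The direction of H2AC6, H2BC21, H2BC12, H2BC5, H2AC25, H2AZ1, H2AX and SLBP was the same in all 11 alternative fits. Those that change only the filter, the abundance trend or the replicate block keep the fold change, so their direction was fixed. In the 4 fits that each left out 1 sample the direction could not turn either, since the groups of these genes did not overlap. H2AC6 was called in 10 of the 11 fits, H2AZ1 in 10, SLBP in 9 and H2BC21 in 6. Depth is unknown, and 22 of the 27 cluster genes had a mean under 10 TPM.

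The counts moved with the fit, and the cause was not tested. As reported there were 2 higher cluster genes, 1 lower variant gene, 1 lower histone mRNA factor, and 199 lower and 360 higher genes in all. Without the abundance trend each of these was 0, at an unadjusted p under 0.05 for 10 members and 3701 genes. The replicate numbers share no stated handling, and the deviations of same-numbered samples had a Pearson r of -0.0925. With the replicate block there were 4 higher cluster genes, 2 lower factors, and 491 lower and 982 higher genes. GC correction gave 2 lower variant genes, 3 lower factors, and 1159 lower and 1114 higher genes. The replicate block with GC correction gave 2 lower variant genes, 2 lower factors, and 733 lower and 651 higher genes. The higher cluster genes numbered 1 without a filter, with mitochondrial genes dropped, and under upper-quartile or median-of-ratios scaling, the last with 230 higher genes in all. With a pseudocount of 0.1 the lower factors were 0. Under the criterion of the study there were 7 higher cluster genes, 2 lower variant genes, 3 lower and 2 higher factors, and 1101 lower and 2029 higher genes.

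The median log2 fold change of the variant genes (-0.029) became -0.12 under median-of-ratios scaling, -0.087 under upper-quartile scaling and -0.078 with mitochondrial genes dropped. In the fits that each left out 1 sample, the lone sample was assumed to vary like the other group. They gave 59 to 1628 lower and 214 to 2451 higher genes, 0 to 1 lower and 1 to 4 higher cluster genes, 0 to 2 lower and 0 to 2 higher variant genes, and 0 to 6 lower and 0 to 2 higher factors. The log2 ratio of summed TPM ran from 0.60 to 0.81 for the cluster genes and from -0.27 to 0.060 for the variant genes, whose median ran from -0.10 to 0.026. The sign turned in these fits for H1-10 (-0.094 to 1.04), MACROH2A1 (-0.059 to 0.036), H3-3A (-0.13 to 0.036) and H3-3B (-0.089 to 0.075).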

Other observations

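Histone-related genes outside the rule were also read, after their values were seen. CENPA, the H3 variant of centromeres, stood at 70.1 and 71.1 TPM in NC against 47.6 and 52.7 TPM after knockdown, for a log2 difference of -0.49 (adjusted p 0.101 by limma). H3-4, a testis H3 gene, stood at 0.0780 and 0.821 TPM in NC against 4.40 and 3.63 TPM after knockdown, for a log2 difference of 1.83 (SE 0.365, adjusted p 0.0507 by limma). It was under 1 TPM in both NC samples and passed the abundance filter through the knockdown samples alone.

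The rule left out 7 rows as pseudogenes or opposite-strand transcripts. Of these H2BC19P stood at 11.8 and 8.54 TPM in NC against 15.7 and 23.3 TPM after knockdown, and H2BC20P stood at 12.2 and 13.0 TPM in NC against 23.7 and 15.3 TPM after knockdown. Both were higher in both sh-ANP32B samples, an order found in 33.2% of all genes tested. Their log2 fold changes were 0.87 and 0.56 (limma adjusted p 0.109 and 0.215). H2AZ2P1 had a log2 difference of -0.16 (adjusted p 0.729 by limma).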
